A study of Canis lupus familiaris with 2 samples.

Results

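The genes of the 3 protein complexes that set up the apical and basolateral sides of an epithelial cell were followed in MDCK cells, a long-established dog kidney cell line forming a columnar monolayer, under low and raised medium height. The set held 10 genes, matched by symbol from a list drawn up with earlier results of these data known, out of 23510 features listed for each culture. PARD3, PARD6B, PRKCI and PRKCZ belong to the PAR complex, CRB3 and MPP5 to the Crumbs complex, and LLGL1, LLGL2, SCRIB and DLG1 to the Scribble group. All 10 were listed in both cultures, and all 10 passed the minimum of 1 FPKM in both. FPKM is by its name the number of fragments on a gene per kilobase of its exons, scaled to the mapped fragments of the library. Levels of different genes are thus compared here per length. How the deposited values were scaled between the libraries is not given.

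Epithelial polarity rests on complexes that hold each other back. PARD3 is a scaffold at the tight junction that gathers PARD6 and an atypical protein kinase C, and the kinase phosphorylates LLGL proteins and thereby keeps them off the apical membrane. The Crumbs complex, in which the transmembrane protein CRB3 binds the scaffold MPP5 (also called PALS1) and, through it, PATJ, marks the apical side, whereas SCRIB, DLG1 and the LLGL proteins act on the lateral side. MDCK cells grown on a filter are a classical model in which the assembly of these complexes has been studied.

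To see which transcripts differ when a column of water rests on the cell sheet, RNA sequencing compared 1 MDCK culture under 2-cm-high medium (the 2-cm culture) with 1 under 50-cm-high medium (the 50-cm culture), where a taller column of medium puts more water pressure on the cells. Both were parental MDCK cells with no transgene or drug, plated on a semipermeable culture insert in EMEM with serum, and the labels place both at day 3. With 1 sample per group, no value has a replicate error, no difference could be tested, and a ratio between the cultures describes these libraries and not the conditions.

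The number of reads per library is not given in the sources used here. Of 574 features detected at under 0.1 FPKM in each culture, 219 shared a ratio of 1.0977, the mark of 1 read in each. A read therefore counted for 9.77% more FPKM in the 50-cm culture. None of the ratios of the 10 polarity genes fell within 0.05% of one that 10 or fewer reads per culture would produce. This says little, since the lowest member value was 10.3 FPKM, far above the levels at which the steps of whole reads were read off. Of the 8 markers of kidney epithelium, 7 were above 1 FPKM in both cultures, and CDH16, the kidney-specific cadherin, was at 1.96 FPKM in the 2-cm culture and 0.676 FPKM in the 50-cm culture. The 8 markers of fibroblasts, endothelium and leukocytes summed to 0.754 and 0.597 FPKM, and COL3A1, PECAM1 and PTPRC were listed at 0 in both.

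The polarity genes differed little between the cultures, as did most features, and counts of 10 genes cannot set them apart from the rest. No member passed 2-fold in either direction, a limit passed by 1.67% of the 11057 features above 1 FPKM in both cultures. PRKCI was the only member more than 25% higher in the 50-cm culture, 1 of 10, beside 10.5% of all features. No member had a 50-cm over 2-cm ratio below 0.8, beside 13.3% of all features. When the values were taken as reads per library, that is, without any correction for depth, the shares of all features turned to 4.55% and 23.1%, since this scale lowers every log2 ratio by 0.13. In FPKM, 8 members were higher and 2 lower in the 50-cm culture, beside 52.6% of all features higher, whereas in reads per library 5 were higher, beside 30.02%. The median log2 ratio of the members was 0.11, beside 0.015 for all features, and the members ran from -0.16 for CRB3 to 0.34 for PRKCI. The lower and upper quartiles of all features stood at -0.17 and 0.17, and 76.1% of all features lay between the ratio of 0.8 and the 25% limit. In bulk RNA, fewer cells that express a gene and less of its RNA per cell cannot be told apart.

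**Figure D1:**
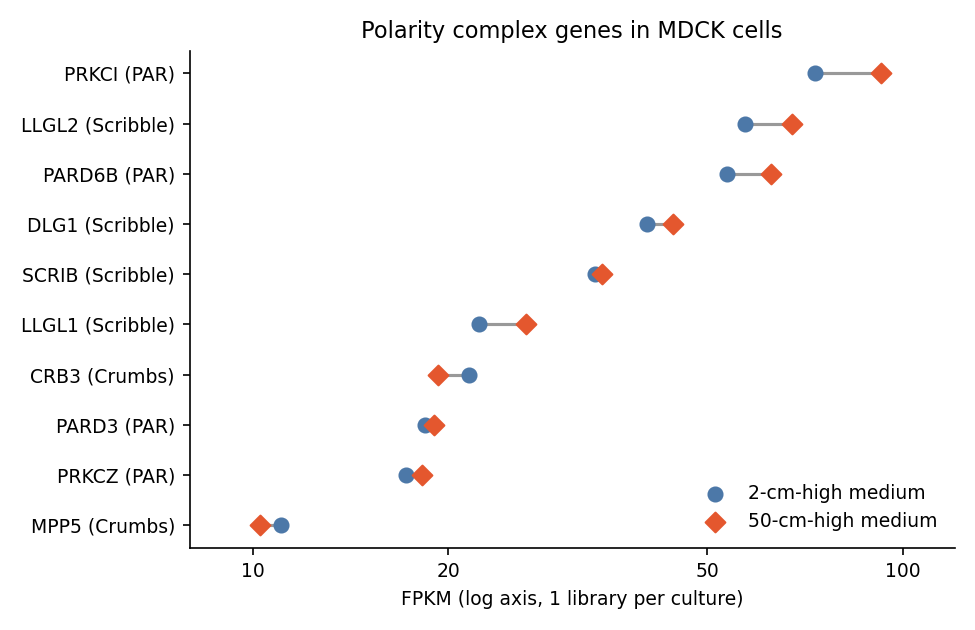
FPKM values (horizontal log axis) of the 10 polarity complex genes, 1 point per culture, circles for the 2-cm and diamonds for the 50-cm culture, ordered by the 2-cm level. PRKCI is highest and MPP5 lowest in both cultures, and each gene's pair of points lies close together, with the widest gap at PRKCI, from 73.3 to 92.6 FPKM.

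Of the PAR complex, the kinase and its adaptor were further from equality than the scaffold. PRKCI, which encodes the atypical protein kinase C iota, was at 73.3 FPKM in the 2-cm culture and 92.6 FPKM in the 50-cm culture, a ratio of 1.26. Its log2 ratio was 0.34, and 98 of the 500 features nearest to it in expression lay further from their own median. Recentring all ratios on their median left PRKCI at 1.2505, equal sums of FPKM at 1.24, quantile normalization at 1.21 and reads per library at 1.15, so that its place past the 25% limit was lost on the last 3 scales, while its direction was not. PARD6B encodes the adaptor that carries the kinase to PARD3 and to CDC42, a small GTPase. PARD6B was at 53.5 FPKM in the 2-cm culture and 62.5 FPKM in the 50-cm culture, a ratio of 1.17, and 194 of its 500 nearest features lay further from their median.

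The other kinase gene and the scaffold were nearly level. PRKCZ, which encodes the zeta form of the kinase, was at 17.2 and 18.2 FPKM in the 2-cm and 50-cm cultures, a ratio of 1.06. PARD3 was at 18.4 and 18.999 FPKM, a ratio of 1.03, and 490 of its 500 nearest features lay further from their median. All 4 PAR genes were thus higher in the 50-cm culture in FPKM, beside 52.6% of all features. PARD3 and PRKCZ were lower when expressed as reads per library, with log2 ratios of -0.090 and -0.052. On that scale 30.02% of all features were higher. Measured against the scaffold, the level of PRKCI was 3.98 times that of PARD3 in the 2-cm culture and 4.87 times in the 50-cm culture. The level of PARD6B was 2.90 and 3.29 times that of PARD3, respectively.

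Both Crumbs genes were lower in the 50-cm culture. CRB3, the transmembrane protein that anchors the complex in the apical membrane, was at 21.5 FPKM in the 2-cm culture and 19.3 FPKM in the 50-cm culture, a ratio of 0.897. MPP5, the scaffold that ties CRB3 to PATJ and to PARD6, was at 11.04 and 10.3 FPKM, a ratio of 0.930. The log2 ratios were -0.16 and -0.11. Both genes stayed below 0 on every scale tried, but only quantile normalization could have turned them. Recentring, equal sums and reads per library lower every log2 ratio, and a pseudocount keeps its sign. These differences were small for genes of such levels, since 191 of the 500 features nearest to CRB3 and 345 of those nearest to MPP5 lay further from their median. Within the pair, the level of CRB3 was 1.95 times that of MPP5 in the 2-cm culture and 1.88 times in the 50-cm culture.

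The remaining core protein of the complex, PATJ, is listed under its older symbol INADL and was further apart between the cultures than any of the 10 members. INADL was at 55.6 FPKM in the 2-cm culture and 39.2 FPKM in the 50-cm culture, a ratio of 0.705 and a log2 ratio of -0.50. Of the 500 features nearest in expression, 14 lay further from their median. INADL was picked out by its ratio from the 61 partner genes described below, of which AMOTL2, with 10 of 500, stood further out. INADL was 5.03 times the level of MPP5 in the 2-cm culture and 3.82 times in the 50-cm culture. CRB3, MPP5 and INADL together summed to 88.1 and 68.8 FPKM. Of these sums INADL was 55.6 and 39.2 FPKM, so that the gap lay mostly in INADL and not in the 2 members.

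Of the Scribble group, the LLGL genes had nearly the same ratio. LLGL2, a target of the atypical kinase and the more abundant of the pair, was at 57.2 FPKM in the 2-cm culture and 67.5 FPKM in the 50-cm culture, a ratio of 1.18. LLGL1 was at 22.3 and 26.3 FPKM, also a ratio of 1.18. On the log2 scale the ratios were 0.241 and 0.239, and LLGL2 was 2.56 times the level of LLGL1 in both cultures. Of the nearest 500 features, 186 for LLGL2 and 190 for LLGL1 lay further from their median, so that neither gene stood apart from genes of like expression.

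The lateral scaffolds were closer to equality. DLG1, a scaffold of PDZ domains at the lateral membrane, was at 40.3 FPKM in the 2-cm culture and 44.4 FPKM in the 50-cm culture, a ratio of 1.10. SCRIB, a large protein of leucine-rich repeats and PDZ domains that acts with DLG1, was at 33.6 and 34.4 FPKM, a ratio of 1.03. SCRIB was the member nearest to equality in FPKM, with a log2 ratio of 0.037, and it turned to -0.0034 after quantile normalization and to -0.097 in reads per library. DLG1 kept its direction, but only just in reads per library, with a log2 ratio of 0.0021. All 4 genes of the group were therefore higher in the 50-cm culture in FPKM, beside 52.6% of all features. On every scale tried 3 of them, all but SCRIB, were higher, beside 30.02% of all features in reads per library.

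**Figure D2:**
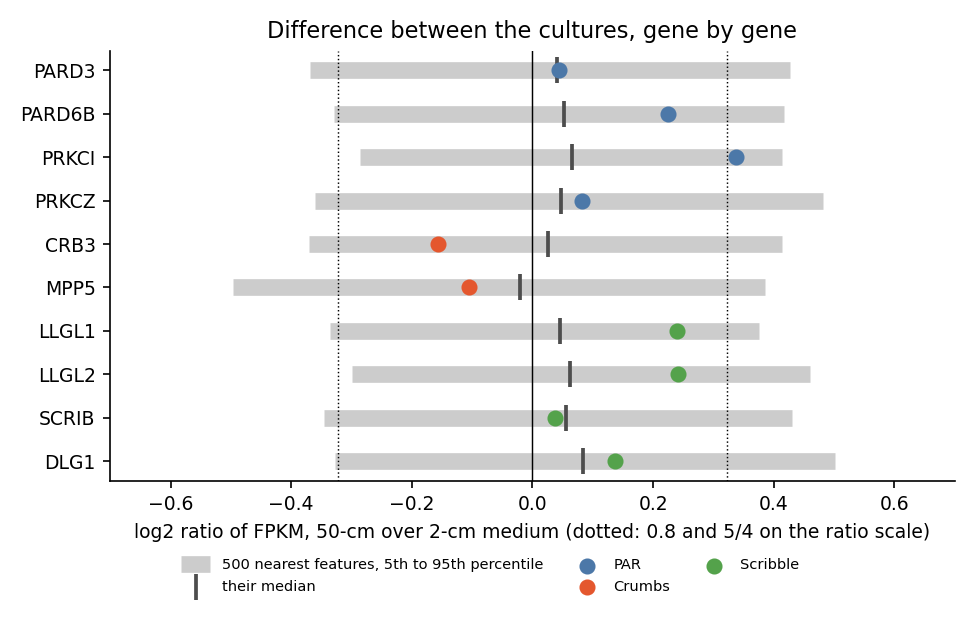
Log2 ratio of FPKM, 50-cm over 2-cm medium (horizontal axis), for each of the 10 genes, coloured by complex, over a grey bar that spans the 5th to 95th percentile of the 500 features nearest in expression, with a tick at their median. All 10 points lie inside their bars, the Crumbs points left of 0 and the others right of 0 in FPKM; in reads per library PARD3, PRKCZ and SCRIB lie left of 0, and after quantile normalization SCRIB does.

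The order of the 10 genes by level was the same in both cultures. From the highest it ran PRKCI, LLGL2, PARD6B, DLG1, SCRIB, LLGL1, CRB3, PARD3, PRKCZ and MPP5. The highest was 6.64 times the lowest in the 2-cm culture and 9.02 times in the 50-cm culture. Without replicates no error of a level is known. A range from the 2-cm to the 50-cm value joins 2 conditions and is not such an error, so a lack of overlap does not show that an order is resolved. Of the 9 pairs of neighbours, the ranges of LLGL2 and PARD6B alone overlapped, from 57.2 to 67.5 FPKM and from 53.5 to 62.5 FPKM. CRB3, PARD3 and PRKCZ did not overlap but were close, at 19.3, 18.999 and 18.2 FPKM in the 50-cm culture. PRKCI exceeded 89.1% of the features above 1 FPKM in mean log2 FPKM, and MPP5 exceeded 37.2%.

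Each family was led by the same paralogue in both cultures. PRKCI made up 81.0% of the summed FPKM of the atypical kinases PRKCI and PRKCZ in the 2-cm culture and 83.6% in the 50-cm culture. LLGL2 held 71.9% of the LLGL sum in both. PARD6B held 97.2% and 98.1% of the PARD6 sum, with PARD6A at 1.47 and 1.11 FPKM. PARD6G, the other paralogue, was at 0.0495 and 0.109 FPKM, a ratio that 1 read against 2 reads would give. PARD3 held 75.4% and 79.9% of the sum with its relative PARD3B, which was at 6.02 FPKM in the 2-cm culture and 4.79 FPKM in the 50-cm culture.

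DLG1 held 68.8% of the sum of the DLG genes in the 2-cm culture and 74.0% in the 50-cm culture. The gap of 5.20 percentage points came with a DLG3 of 6.73 FPKM in the 2-cm culture and 4.79 FPKM in the 50-cm culture, a DLG5 of 10.97 and 10.3 FPKM, and DLG2 and DLG4 below 1 FPKM in both. CRB3 was the only CRB paralogue above 0, and CRB1 and CRB2 were listed at 0 in both cultures. A listed 0 does not show that the RNA was absent, since ATP5O, a subunit gene of the mitochondrial ATP synthase, was also listed at 0 in both. LIN7C, which encodes an MPP5 partner, made up 80.2% and 80.5% of the LIN7 sum, with LIN7A listed at 0. MARK3 and MARK2, which encode PAR-1 kinases of the basolateral side, held 53.1% and 38.6% of the MARK sum in the 2-cm culture and 52.6% and 39.4% in the 50-cm culture.

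**Figure D3:**
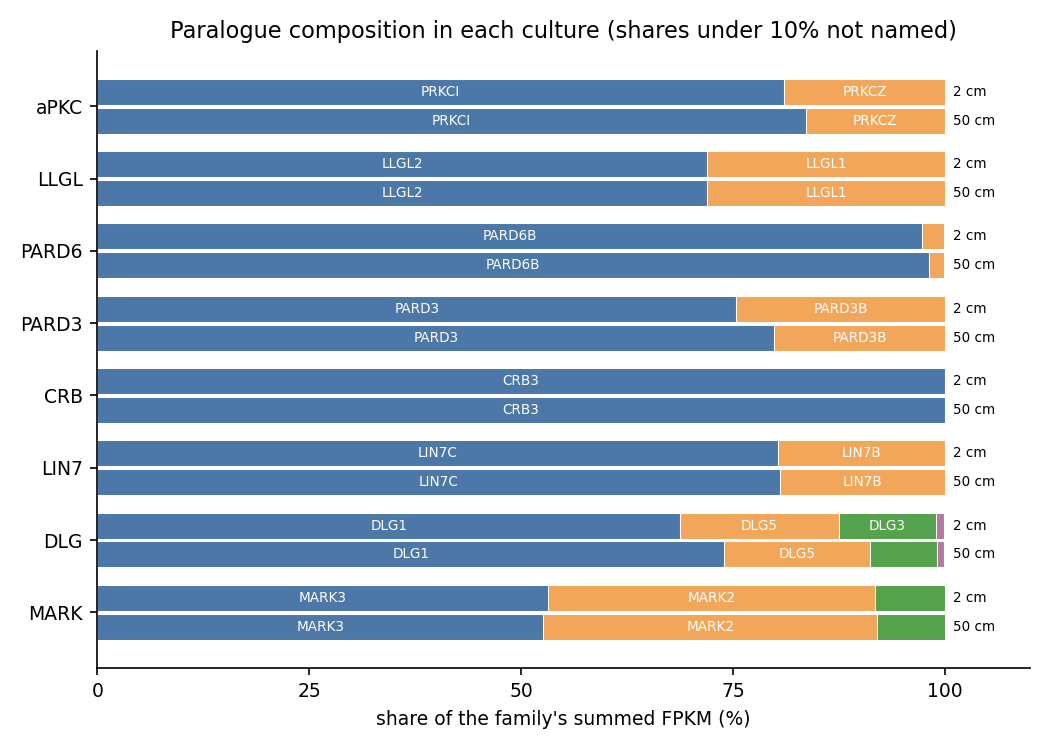
Share of each paralogue in the summed FPKM of its family (horizontal axis, in percent), with the 2-cm culture above the 50-cm culture in each pair of bars. The leading paralogue is the same in both cultures in all 8 families, and the widest shift is that of DLG1, from 68.8% to 74.0%.

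Partner genes of the complexes, 75 genes in 5 lists ordered by role, were read in the same way, and 61 of them were above 1 FPKM in both cultures. None passed 2-fold. More than 25% higher in the 50-cm culture were 4 of the 61 (6.56%, beside 10.5% of all features), and below the ratio of 0.8 were 12 (19.7%, beside 13.3%). The higher count was 2 (3.28%) with equal sums or quantile normalization, beside 8.72% and 11.8% of all features. In reads per library it was 1 (1.64%, beside 4.55%). The lower count was 7 (11.5%) with a pseudocount of 1 or quantile normalization, beside 10.8% and 11.2% of all features. It was 13 (21.3%, beside 15.1%) with equal sums and 15 (24.6%, beside 23.1%) in reads per library. At minima of 0, 0.1 and 5 FPKM the lower share was 22.4%, 23.1% and 14.3%, beside 20.7%, 18.9% and 8.01%. The median log2 ratio of the 61 genes was 0.0007, beside 0.015 for all features. Of the 14 partner genes that were not above 1 FPKM in both cultures, 7 were listed at 0 in both, namely CRB1, CRB2, MPDZ, LIN7A, AMOT, LRRC7 and JAM2. Of the 12 low genes, 6 were under 10 FPKM in the 2-cm culture.

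In the list of PAR paralogues and partners, 17 of 19 genes were above the minimum, with a median log2 ratio of 0.034. Of these, 2 were more than 25% higher (beside 10.5% of all features) and 2 were below 0.8 (beside 13.3%). The higher genes were YWHAG, from 81.2 to 105 FPKM, and YWHAH, from 126 to 160 FPKM, both 14-3-3 proteins, the family of PAR-5 that binds phosphorylated partners. Neither stayed past the 25% limit after quantile normalization or in reads per library, nor YWHAH with equal sums. Of the 6 listed 14-3-3 genes, 5 were higher in the 50-cm culture in FPKM, beside 52.6% of all features. The count was 4 with equal sums or quantile normalization and 3 in reads per library, the latter beside 30.02%. How reads shared by close copies were divided is not stated. The lower genes were PARD6A, at a ratio of 0.754, and PARD3B, at 0.796. CDC42, the GTPase that PARD6 binds, was at 499 and 491 FPKM, and STK11, the PAR-4 kinase, at 35.3 and 34.2 FPKM. MARK2, MARK3 and MARK4 had ratios from 1.13 to 1.19.

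The Crumbs partners held the highest ratio among the 61 partner genes above 1 FPKM in both cultures. Of 13 listed genes, 7 were above the minimum, with a median log2 ratio of 0.0099. Of the 7, 1 was more than 25% higher (beside 10.5% of all features) and 1 was below 0.8 (beside 13.3%). AMOTL2, an angiomotin relative at cell junctions, was at 17.3 FPKM in the 2-cm culture and 31.3 FPKM in the 50-cm culture, a ratio of 1.81, and 10 of its 500 nearest features lay further from their median. INADL, described above, was the low gene. LIN7C was at 15.8 and 18.05 FPKM, and EPB41L5, which encodes a FERM domain protein that binds Crumbs, at 15.7 and 15.8 FPKM.

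Of the 12 Scribble paralogues and partners, 9 were above the minimum, with a median log2 ratio of -0.095. None was more than 25% higher and 2 were below 0.8, beside 10.5% and 13.3% of all features. The low genes were DLG3, at a ratio of 0.711, and ERBB2IP, from 25.7 to 20.4 FPKM, a ratio of 0.792. ERBB2IP encodes erbin, a SCRIB relative with leucine-rich repeats and a PDZ domain, and its ratio passed 0.8 with a pseudocount of 1. Erbin stood further out for its level than DLG3 did, with 49 against 91 of the 500 nearest features lying further from their median. ARHGEF7 and GIT1, which encode a Rac and CDC42 exchange factor bound by SCRIB and its partner, had ratios of 1.06 and 0.984.

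In the list of junctional receptors that recruit the PAR complex, 6 of 9 genes were above the minimum. Among them was MLLT4, which encodes afadin, a cytoplasmic partner of nectins and not a receptor. None was more than 25% higher and 2 were below 0.8, beside 10.5% and 13.3% of all features. The median log2 ratio was 0.029, which turned to -0.20 when weakly expressed JAM3 and PVRL4 were admitted. Without MLLT4, at 0.12, the middle gene was PVRL2, at a log2 ratio of -0.056. F11R, which encodes the junctional adhesion molecule JAM-A that binds PARD3, was at 265 FPKM in the 2-cm culture and 208 FPKM in the 50-cm culture, a ratio of 0.786. For a gene of that level 26 of the 500 nearest features lay further from their median. PVRL3, or nectin-3, was at 5.63 and 4.21 FPKM, a ratio of 0.748. PVRL1, or nectin-1, stood on the other side of 0 at 11.8 and 14.2 FPKM, and CDH1, the E-cadherin gene, at 211 and 229 FPKM.

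The 22 genes of the apical membrane and its delivery were all above the minimum, with a median log2 ratio of 0.001. Of these, 5 were below 0.8 (beside 13.3% of all features) and 1 was more than 25% higher (beside 10.5%). PODXL, which encodes podocalyxin, the apical sialoprotein used as a marker of MDCK polarity, was at 83.2 FPKM in the 2-cm culture and 59.7 FPKM in the 50-cm culture, a ratio of 0.717. It was the furthest out for its level of the 22, with 15 of its 500 nearest features further from their median. EXOC6, an exocyst subunit gene, was at 8.87 and 5.75 FPKM, a ratio of 0.648. STX3, the apical syntaxin, had a ratio of 0.783, and the Rab27 effectors SYTL2 and SYTL4 had ratios of 0.788 and 0.795. EZR, which encodes ezrin, the linker of the apical membrane to actin, was at 261 FPKM in the 2-cm culture and 332 FPKM in the 50-cm culture, a ratio of 1.27 that did not reach the 25% limit with equal sums, after quantile normalization or in reads per library. RAB11A, the recycling endosome GTPase, was level at 185.8 FPKM in both, and RAB8A was at 77.1 and 87.7 FPKM.

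**Figure D4:**
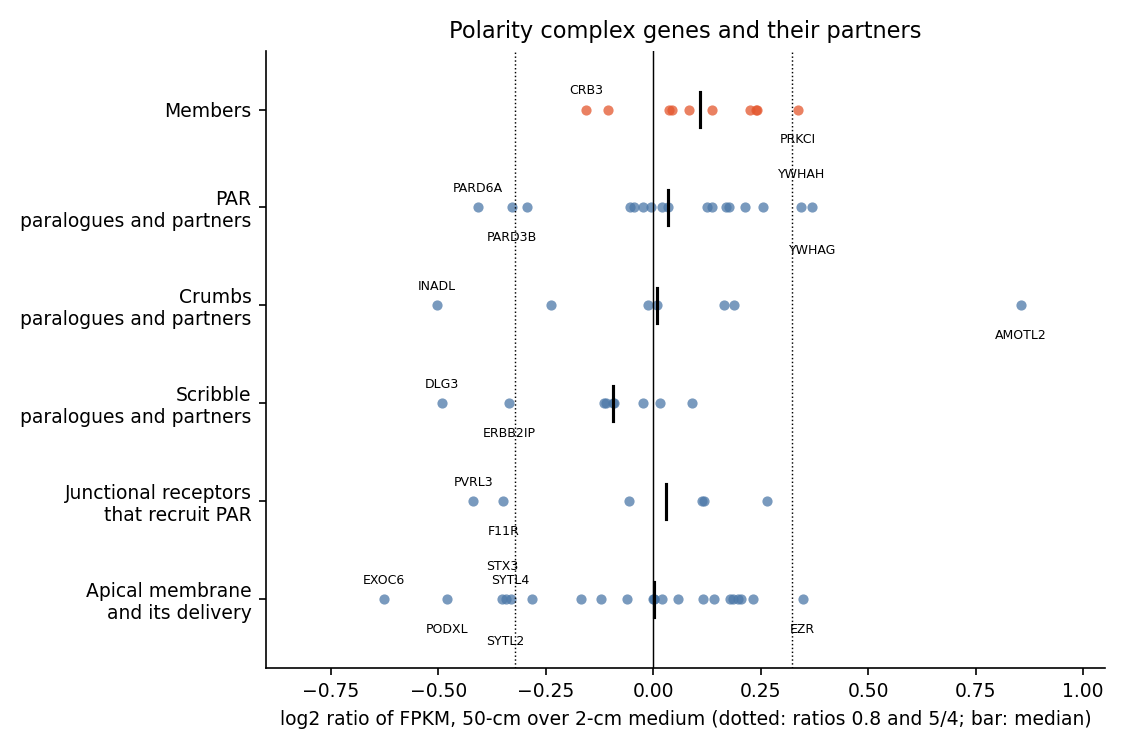
Log2 ratio of FPKM, 50-cm over 2-cm medium (horizontal axis), for the 10 polarity complex genes and the tested genes of the 5 partner lists, 1 point per gene, with the median of each list as a black bar and dotted lines at 0.8 and at 25% higher. The named points are CRB3 and PRKCI among the 10 members, and in the partner lists those outside the dotted lines, from EXOC6 at -0.63 to AMOTL2 at 0.86.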

How the data were processed

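RNA from MDCK cells in 2-cm- and 50-cm-high medium was sequenced by the authors as stranded mRNA libraries with 75-base single-end reads. According to the paper and the submitters' processing notes, reads were mapped to CanFam3.1 with TopHat2 2.0.13, Bowtie2 2.2.3 and SAMtools 0.1.19, and the deposited FPKM values came from Cuffnorm 2.2.1. The annotation and the library scaling are not given in the sources used here. FPKM is relative to the library, so abundant genes shift the others.

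Ratios (50-cm over 2-cm) used the deposited values with no pseudocount and were kept where FPKM exceeded 1 in each culture. Limits were 2-fold, the study's rule, and a ratio 25% higher or below 0.8. The 500 features nearest in mean log2 FPKM describe the spread across genes and are not replicate error. No test was run, with 1 sample per group.

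Members, partner lists and limits were chosen with earlier results of these data known. Named were all 10 members, the paralogue families, and in each list the genes past the smaller limits (at most 5 each way); other partner genes were named after their values were seen. All 10 symbols matched RefSeq genes (UU_Cfam_GSD_1.0). As that is not the build used, no positions are given, and no sequences were used here. Alternatives were a minimum of 0, 0.1 or 5 FPKM, a pseudocount of 0.1 or 1, recentring, equal sums, quantile normalization and reads per library. Scripts were checked on simulated data. Tables were read with pandas 2.3.3 and numpy 2.4.6 under Python 3.11.15, and plots drawn with matplotlib 3.10.9.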

Additional observations from a re-analysis of the deposited data

How the results depend on the processing

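No member passed 2-fold or fell below 0.8 under any alternative. The minima of 0, 0.1 and 5 FPKM could not change this, since the lowest member value was 10.3 FPKM, that of MPP5 in the 50-cm culture. Nor could a pseudocount, which only brings a ratio closer to equality. PRKCI, the 1 member more than 25% higher, left 0 such members under equal sums, quantile normalization and reads per library. Reads per library, which lowers every log2 ratio by 0.13, brought the median of the members to -0.025, against -0.12 for all features. It brought the PAR partner list to -0.10, the Crumbs list to -0.12, the Scribble list to -0.23, the junctional receptor list to -0.11 and the apical list to -0.13. The junctional receptor list also turned to -0.20 with a minimum of 0 or 0.1 FPKM, which admitted JAM3 and PVRL4 (ratios 0.612 and 0.274, the latter that of 4 reads against 1). With a pseudocount of 1, CRB3 held 91.8% of the CRB sum in 2-cm-high and 91.0% in 50-cm-high medium in place of 100%, by construction. Of the 16 named partner genes past the smaller limits, none turned direction, but only quantile normalization could have turned one. A pseudocount keeps the sign of a log2 ratio. Recentring, equal sums and reads per library lower all log2 ratios by 0.015, 0.032 and 0.13, less than the 0.32 of the 25% limit. Quantile normalization dropped 8 (EZR, PARD3B, PARD6A, PVRL3, SYTL2, SYTL4, YWHAG and YWHAH), a pseudocount of 1 dropped 5 (ERBB2IP, PARD3B, PARD6A, SYTL2 and SYTL4), reads per library 3 (EZR, YWHAG and YWHAH), equal sums 2 (EZR and YWHAH) and a pseudocount of 0.1 dropped 1 (SYTL4). The share of all features past 2-fold was 8.50% at a minimum of 0, 5.50% at 0.1 and 0.708% at 5 FPKM, and 0.832% with a pseudocount of 1, in place of 1.67%. The causes of the other shifts were not tested. No paired analysis was possible because each group has 1 sample. Depth is unknown, so no interval of a single value could be given.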
